A study of Mus musculus with 6 samples.

Results

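Adipocyte lipolysis is the stepwise breakdown of stored triglyceride into fatty acids and glycerol. Its machinery was followed here through 9 genes: the lipases Pnpla2, Lipe and Mgll, the co-activator Abhd5, the inhibitors G0s2, Hilpda and Pde3b, the droplet gatekeeper Plin1 and the glycerol channel Aqp7. They are 9 of the 22180 genes that the array table named in rows with only 1 gene, and each was read from its row with the highest mean over all arrays. Of the 9, 8 had 1 such row and G0s2 had 2. The rule takes them by function, and the choice was made with earlier results of these data known.

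The RNA came from eWAT, the epididymal white fat depot, of male C57BL/6 mice aged 8 months and kept on a high-fat diet (D12492) for 21 weeks. There were 3 arrays from wild-type mice (WT 1 to WT 3) and 3 from mice labelled Blnc1 adipose specific Tg (Tg 1 to Tg 3). The transgene, Blnc1, gives a long noncoding RNA that was described as a partner of the transcription factor EBF2 in thermogenic fat. The comparison asked how the eWAT transcriptome of obese mice differed when adipose tissue carried the Blnc1 transgene. Age, sex, strain and diet were the same in both groups. Replicates are labelled biological, and each array is read as 1 mouse. Where 3 values of a group are given, they stand in the order of the replicate numbers 1 to 3. The labels give neither the promoter that drives the transgene nor the number of founder lines. The annotation named 0 rows Blnc1, so the genotype labels could not be checked against the transgene. Values are log2 signals, on which a difference of 1 is a doubling, and their precision is limited by the 3 arrays per group.

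In fat cells, adipose triglyceride lipase (ATGL, the product of Pnpla2) removes the first fatty acid of a triglyceride, hormone-sensitive lipase (HSL, from Lipe) cuts the diglyceride that remains, and monoglyceride lipase (from Mgll) releases the last fatty acid and glycerol. Catecholamines start the process through cyclic AMP and protein kinase A, which phosphorylates HSL and perilipin 1. Perilipin 1 then lets go of CGI-58 (from Abhd5), the protein that switches ATGL on. Insulin stops the process mainly through phosphodiesterase 3B, which destroys cyclic AMP.

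The tissue labels were checked against markers. The 13 measured adipocyte markers, a list without any of the 9 genes, had mean signals from 5.63 (Adig) to 12.26 (Fabp4, the fatty acid binding protein of adipocytes), against a median of 2.67 over all rows. Of 13 measured epididymis genes, 9 stood at 5.34 to 9.87 in Tg 2 and at 2.69 or less in every other array, a margin of over 2 log2 units in each case. In WT 2 and WT 3, 1 further gene of that list, Spink8 (named after its values were seen), read 6.55 and 8.09 against at most 2.53 elsewhere. T cell markers were also high in WT 2 and WT 3, by 0.80 and 1.32 relative to the 6-array mean of each gene. The signals of Tg 2 and of WT 2 and WT 3 were thus unlike, and in WT 2 and WT 3 they rest on Spink8 among these genes. The summaries below are also given without Tg 2, among WT 2, WT 3 and Tg 2, and among WT 1, Tg 1 and Tg 3.

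All 9 lipolysis genes had a higher mean in Tg than in WT, by 0.15 to 0.62 log2 units, with a median of 0.42, where the median over all 41345 rows was -0.01. A difference above 0 was found in 47.2% of all rows. In 5 of the 9 (Aqp7, Mgll, Lipe, G0s2 and Pnpla2) the 3 Tg arrays all lay above the 3 WT arrays, as they did in 7.36% of all rows. With each array centred on its median, that share of all rows was 11.8%, and 6 of the 9 stood apart. None of the 9 passed the test. In limma, 0 of the 9 genes had an adjusted p of 0.05 or below over all rows, as did 0% of the rows, and the members' adjusted p lay between 0.35 and 0.812. The same 5 genes had an unadjusted p under 0.05, which 4.43% of the rows had in this direction. The differences below are therefore given as measured sizes with their errors.

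**Figure D1:**
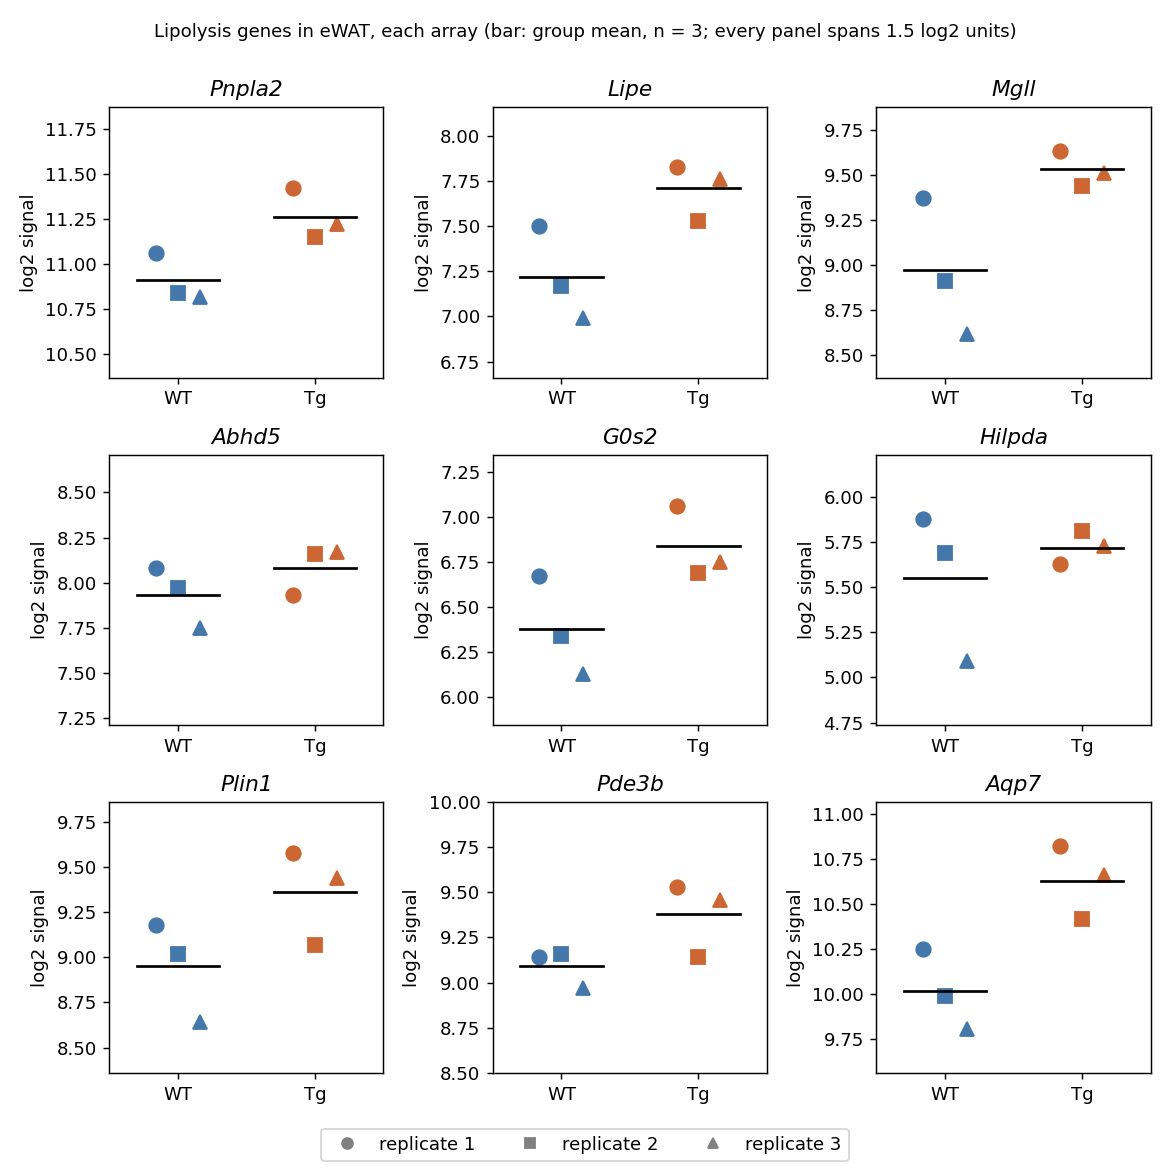
Log2 signal (y axis) of the 9 lipolysis genes in each of the 3 WT and 3 Tg arrays (x axis), with the group mean as a bar and the marker shape giving the replicate number. In Pnpla2, Lipe, Mgll, G0s2 and Aqp7 every Tg point lies above every WT point, and WT 3 is the lowest array in all 9 panels.

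The promoters of the 5 genes whose groups stood apart are shown. Each sequence covers the 250 bases before an annotated start site of the gene, the most upstream where several are listed, from RefSeq on GRCm38.p6, written 5′ to 3′ on the strand of the gene. Capitals mark the E-box CACGTG, the GC box GGGCGG, the nuclear receptor half-site AGGTCA, the hypoxia core ACGTG, which lies within the E-box, and AGGTCANAGGT, a half-site followed by the start of another at the spacing that PPAR and RXR recognise. All were searched on both strands.
Aqp7 (chr4:41048137-41048386, minus strand): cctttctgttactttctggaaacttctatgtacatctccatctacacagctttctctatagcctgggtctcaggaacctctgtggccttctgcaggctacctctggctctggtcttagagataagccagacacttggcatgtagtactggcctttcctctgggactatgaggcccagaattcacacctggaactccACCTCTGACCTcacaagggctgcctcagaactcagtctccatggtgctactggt
Lipe (chr7:25395988-25396237, minus strand): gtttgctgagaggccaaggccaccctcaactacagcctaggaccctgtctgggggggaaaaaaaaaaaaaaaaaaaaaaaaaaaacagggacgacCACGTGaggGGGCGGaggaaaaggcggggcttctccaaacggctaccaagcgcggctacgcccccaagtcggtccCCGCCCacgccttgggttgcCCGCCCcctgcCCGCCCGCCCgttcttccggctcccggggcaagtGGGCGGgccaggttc
Mgll (chr6:88724162-88724411, plus strand): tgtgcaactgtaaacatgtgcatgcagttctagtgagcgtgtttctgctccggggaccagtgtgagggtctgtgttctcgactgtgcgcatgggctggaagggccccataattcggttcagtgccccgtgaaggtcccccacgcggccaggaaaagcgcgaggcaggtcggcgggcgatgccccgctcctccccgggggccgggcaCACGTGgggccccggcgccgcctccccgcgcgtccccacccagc
Pnpla2 (chr7:141454938-141455187, plus strand): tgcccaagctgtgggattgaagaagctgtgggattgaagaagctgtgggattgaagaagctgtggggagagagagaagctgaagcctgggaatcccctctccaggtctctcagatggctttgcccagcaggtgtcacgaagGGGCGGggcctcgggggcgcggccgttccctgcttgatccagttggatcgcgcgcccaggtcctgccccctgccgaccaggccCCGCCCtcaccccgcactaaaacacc
G0s2 (chr1:193273189-193273438, minus strand): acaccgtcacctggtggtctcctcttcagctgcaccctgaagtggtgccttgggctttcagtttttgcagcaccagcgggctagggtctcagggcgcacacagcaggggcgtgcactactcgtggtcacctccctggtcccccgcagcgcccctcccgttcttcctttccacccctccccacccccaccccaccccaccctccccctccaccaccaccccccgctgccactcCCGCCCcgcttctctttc
Start sites were listed for 8 of the 9 genes, in 12 windows. The letters AGGTCANAGGT occur in Aqp7 and in none of the other 7 genes. They are the same letters in 2 overlapping windows of Aqp7, and 0.149% of all 32851 promoter windows of this length hold them. In Aqp7 they lie on the strand opposite to the gene, from 54 to 44 bases before the start site. Aqp7 is a textbook target of PPARG, the master regulator of fat cell formation. The E-box was found in 2 of the 12 windows, those shown for Lipe and Mgll, against 6.02% of all windows. The GC box was found in 6 of the 12, against 32.7% of all windows. The windows of these genes are rich in G and C in most cases, at 67.2% in G0s2 and 63.2% in Pnpla2, where the median of all windows was 52.4%. The 2 windows with the E-box hold 62.8% in Lipe and 68% in Mgll. Letters rich in G and C, such as the GC box and the E-box, are more likely in such sequence. The EBF palindrome TCCCNNGGGA occurred in 0 of the 12 windows and in 0.779% of all windows. A match describes letters in the window, and its absence says only that these letters are not there.

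Among the lipases, Pnpla2 encodes the enzyme that opens the pathway. Its signals were 11.06, 10.84 and 10.82 in the WT arrays and 11.42, 11.15 and 11.22 in the Tg arrays. The groups did not overlap, but the lowest Tg array lay only 0.09 above the highest WT array. The difference was 0.36 ± 0.12 (SE, n = 3 per group), or 1.28-fold, with an adjusted p of 0.423 in limma.

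Lipe encodes HSL, the main diglyceride lipase of adipocytes. It read 7.50, 7.17 and 6.99 in the WT arrays and 7.83, 7.53 and 7.76 in the Tg arrays. Tg 2 was barely above WT 1, by 0.03, so the separation of the groups rests on that small gap. The difference was 0.48 ± 0.16 (SE), or 1.40-fold (adjusted p = 0.413 in limma).

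Mgll, the gene of the enzyme for the last step, read 9.37, 8.91 and 8.62 in the WT arrays and 9.63, 9.44 and 9.51 in the Tg arrays. The WT arrays were spread more widely than the Tg arrays, with an SD of 0.38 against 0.10. The difference was 0.56 ± 0.20 (SE), or 1.47-fold (adjusted p = 0.432 in limma). WT 1 lay nearer to the Tg arrays than to WT 3 in this gene.

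Abhd5 encodes CGI-58, the protein that activates ATGL once perilipin 1 releases it. It read 8.08, 7.97 and 7.75 in the WT arrays and 7.93, 8.16 and 8.17 in the Tg arrays. The groups overlapped, with Tg 1 below WT 1 and WT 2. The difference of 0.15 ± 0.13 (SE) was the smallest of the 9 (adjusted p = 0.717 in limma). It read 0.06 without WT 3, 0.23 without Tg 1 or without WT 1, and -0.03 among WT 1, Tg 1 and Tg 3. Tg 1 was the highest array in 7 of the 9 genes and the lowest of its group in Abhd5 and Hilpda.

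G0s2 encodes a small protein that binds ATGL and blocks it. Its brighter row read 6.67, 6.34 and 6.13 in the WT arrays and 7.06, 6.69 and 6.75 in the Tg arrays. The groups were separated by 0.02, between WT 1 and Tg 2. The difference was 0.46 ± 0.18 (SE), or 1.37-fold (adjusted p = 0.461 in limma). The dimmer row of the gene read 3.21, 2.75 and 2.67 in the WT arrays and 3.65, 3.94 and 3.19 in the Tg arrays. It pointed the same way, by 0.72 ± 0.23 (SE), but there WT 1 and Tg 3 overlapped, and its signal was close to the median of all rows. In the same arrays Pnpla2, the target of G0s2, differed by 0.36, so the change of Pnpla2 minus that of G0s2 was -0.10.

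Hilpda, the hypoxia-inducible inhibitor of ATGL, read 5.88, 5.69 and 5.09 in the WT arrays and 5.63, 5.81 and 5.73 in the Tg arrays. WT 1 was the highest of all 6 arrays and WT 3 the lowest. The difference was 0.17 ± 0.21 (SE), with an adjusted p of 0.812 in limma. It read -0.06 without WT 3 and -0.20 among WT 1, Tg 1 and Tg 3, so its sign depended on WT 3.

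Plin1 encodes perilipin 1, which coats the droplet and holds the lipases off until it is phosphorylated. It read 9.18, 9.02 and 8.64 in the WT arrays and 9.58, 9.07 and 9.44 in the Tg arrays. Tg 2 lay below WT 1, so the groups overlapped. The difference was 0.42 ± 0.19 (SE), or 1.33-fold (adjusted p = 0.526 in limma), and 0.26 without WT 3.

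Pde3b, the phosphodiesterase through which insulin lowers cyclic AMP, read 9.14, 9.16 and 8.97 in the WT arrays and 9.53, 9.14 and 9.46 in the Tg arrays. Tg 2 was level with WT 1 and WT 2, and Tg 1 and Tg 3 were above all WT arrays. The difference was 0.29 ± 0.14 (SE), or 1.22-fold (adjusted p = 0.526 in limma). Among WT 2, WT 3 and Tg 2 it read 0.08.

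Aqp7 encodes the water and glycerol channel through which glycerol leaves the fat cell. It showed the largest difference of the 9 genes. Its signals were 10.25, 9.99 and 9.81 in the WT arrays and 10.82, 10.42 and 10.66 in the Tg arrays. The groups were 0.17 apart, the widest gap among the 9. The difference was 0.62 ± 0.16 (SE), or 1.53-fold, and its adjusted p of 0.35 in limma was the lowest of the 9. Among WT 2, WT 3 and Tg 2 the difference was 0.52, and among WT 1, Tg 1 and Tg 3 it was 0.49.

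The arrays ranked alike in most of the 9 genes. WT 3 was the lowest of the 6 arrays in 9 of 9 genes and WT 1 the highest of its group in 8 of 9, with Pde3b as the exception. Tg 2, the array with epididymis transcripts, was the lowest Tg array in 7 of 9. Relative to the 6-array mean of each gene, the mean of the 9 genes was 0.04, -0.19 and -0.44 in the WT arrays and 0.30, 0.07 and 0.21 in the Tg arrays. The narrowest step between the groups was thus from WT 1 to Tg 2. Over the 6 arrays, Pearson's r of each gene with the mean of the other 8 was 0.99 for Lipe, 0.98 for Mgll, 0.97 for G0s2 and 0.96 for Aqp7. It was 0.95 for Plin1, 0.93 for Pnpla2 and 0.86 for Pde3b, and 0.64 for both Abhd5 and Hilpda. These correlations include the genotype, the make-up of each sample and any scaling that the arrays share.

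Adipocyte markers ran alongside the lipolysis genes. The mean of the 13 markers was -0.07, -0.20 and -0.36 in the WT arrays and 0.39, 0.00 and 0.25 in the Tg arrays, an order of the arrays that matched that of the 9 genes. All 13 markers had a higher mean in Tg, against 47.2% of all rows, with a median difference of 0.36. Groups were apart with Tg higher in 8 of 13, against 7.36% of all rows. Adipoq, the adiponectin gene, differed by 0.62 ± 0.19 (SE). The 13 differences ran from 0.05 (Lpl) to 0.95 (Rbp4), both named after their values were seen. Whether the markers shared 1 common shift was not tested. In bulk tissue a larger share of fat cells and more RNA per fat cell cannot be told apart. With each array centred on the mean of these markers, the median difference of the 9 genes was -0.01. On that scale Aqp7 read 0.19, Mgll 0.13, Lipe 0.06, G0s2 0.03, Plin1 -0.01, Pnpla2 -0.07, Pde3b -0.14, Hilpda -0.25 and Abhd5 -0.27. The groups of Aqp7 then stood apart with Tg higher, 1 of the 9, where 0.399% of all rows did. This scaling subtracts 1 value per array, so it lowered the difference of every row alike and moved the median of all rows from -0.01 to -0.44. The differences among the 9 genes, and between them and other rows, are the same on both scales.

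**Figure D2:**
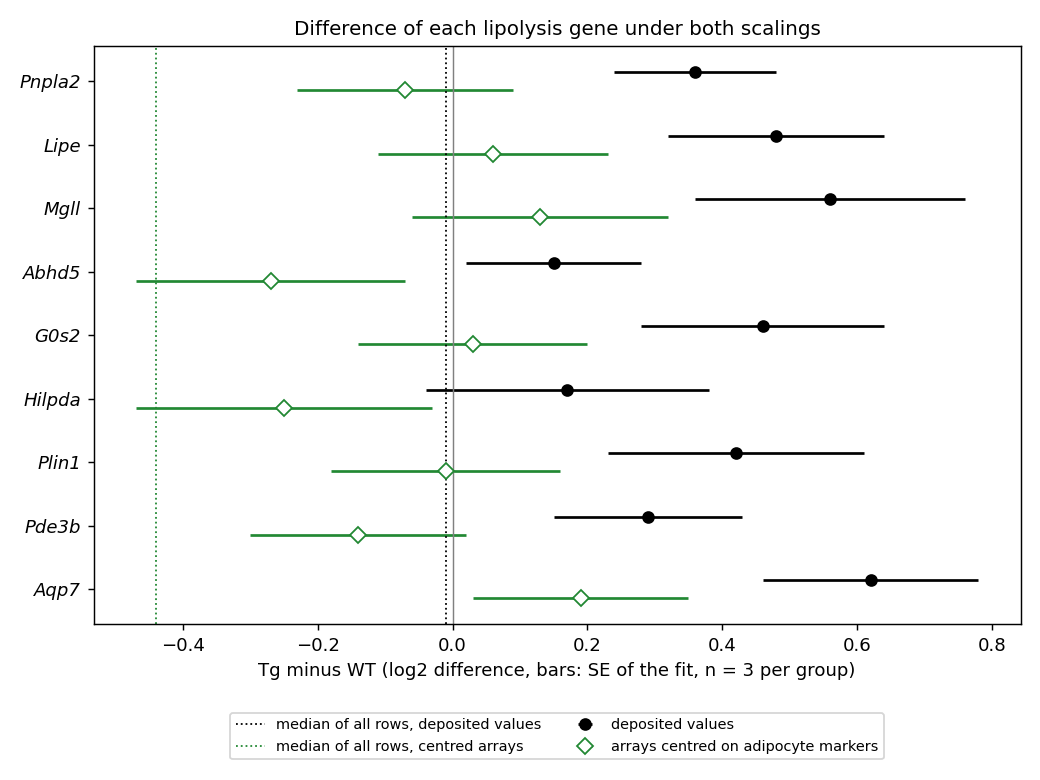
Difference of each lipolysis gene (y axis) between 3 Tg and 3 WT arrays in log2 units (x axis), with the SE of the limma fit, on the deposited values (filled circles) and with arrays centred on 13 adipocyte markers (open diamonds); dotted lines give the median of all rows on each scale. The differences run from 0.15 to 0.62 on the deposited values and from -0.27 to 0.19 after centring.

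Group means of markers of several other cells also differed. Endothelial markers were higher in Tg in 12 of 12 genes, against 47.2% of all rows, with a median of 0.32. Their groups were apart with Tg higher in 2 of 12, as in 7.36% of all rows. Their array means were 0.10, -0.12 and -0.47 in WT and 0.37, 0.01 and 0.11 in the Tg arrays. Macrophage markers were lower in 11 of 12, where 47.2% of all rows were higher, with a median of -0.27. Groups were apart with Tg lower in 10 and with Tg higher in 1, as in 9.35% and 7.36% of all rows. The 1 higher gene, Cd163, named after its values were seen, differed by 0.64 ± 0.14. The macrophage means were 0.07, 0.09 and 0.17 in the WT arrays and between -0.12 and -0.10 in the Tg arrays. Mast cell markers were lower in 9 of 9 (median -1.31), with groups apart in 8, as in 9.35% of all rows. T cell markers had a lower mean in 7 of 7 (median -0.93), but groups were apart in 0. Their array means were -0.79, 0.80 and 1.32 in WT and 0.07, -0.63 and -0.77 in the Tg arrays. WT 1 was thus the lowest array, and the T cell difference rests on WT 2 and WT 3. The 7 progenitor markers had a median of -0.03, the 4 measured muscle markers 0.00 and the 7 thermogenic markers 0.12. Of the thermogenic markers 4 had a higher mean in Tg and 3 a lower one. Ucp1, the uncoupling protein that defines thermogenic fat, named after its values were seen, differed by -1.55 ± 0.30. Its groups were apart with Tg lower, as in 9.35% of all rows. Its Tg signals of 2.64, 2.34 and 2.35 lay below the median of all rows, 2.67. The part of these cells in the differences of the lipolysis genes was not tested.

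**Figure D3:**
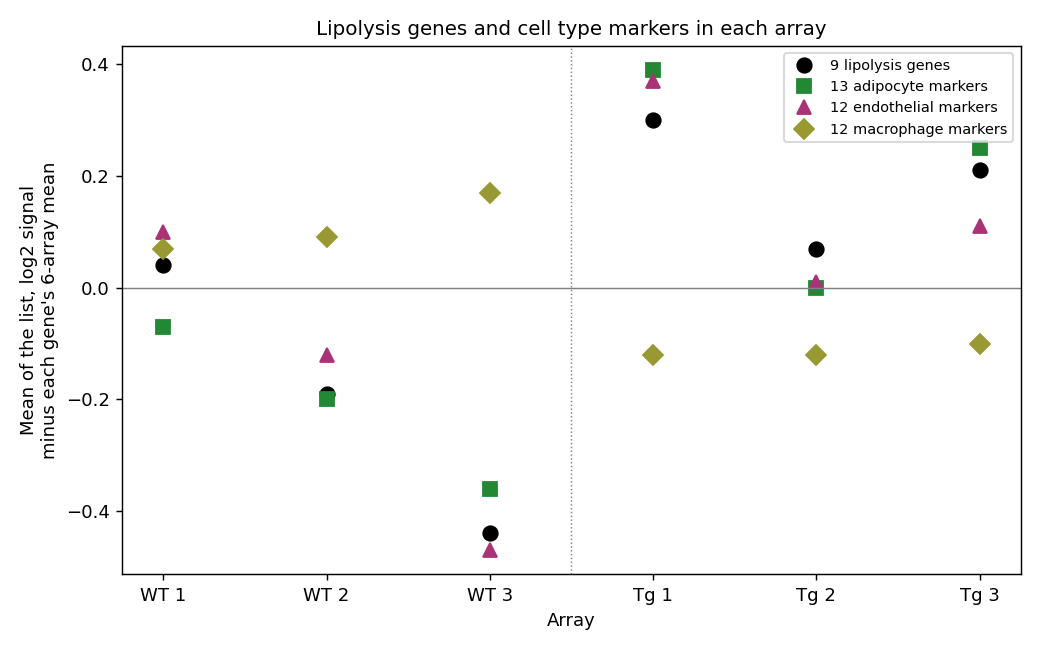
Mean log2 signal of the 9 lipolysis genes and of 3 marker lists (y axis, relative to the 6-array mean of each gene) in each array (x axis). The lipolysis genes and the 13 adipocyte markers have the same order of arrays, with WT 3 lowest at -0.44 and -0.36, while the macrophage markers lie above 0 in the WT arrays and below 0 in the Tg arrays.

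Among WT 2, WT 3 and Tg 2, the arrays with Spink8 or epididymis signal, the median difference of the 9 genes was 0.42 and 9 of 9 were above 0. Among WT 1, Tg 1 and Tg 3 it was 0.26, with 7 of 9 above 0. Each of these comparisons has a lone array in 1 group, which limma assumes to vary like the others, and 0 of the 9 genes passed in either. Without Tg 2, the median difference was 0.53 and 7 of the 9 genes stood apart, with Plin1 and Pde3b joining the 5. With fewer arrays more rows separate, and 13.8% of all rows then stood apart in this direction.

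Around the 9 genes, 7 lists covered the rest of the pathway, and 88 of their genes were measured by a row with 1 gene. In limma 0 of the 88 passed. Of them 64 had a higher mean in Tg, against 47.2% of all rows, and their median difference was 0.13. Groups were apart with Tg higher in 24 and with Tg lower in 6, as in 7.36% and 9.35% of all rows. At an unadjusted p under 0.05 in limma there were 17 higher and 1 lower, as in 4.43% and 5.88% of all rows. The counts of higher genes in each list below are to be set against the same 47.2% of all rows. Fabp4, Lpl, Cidec, Plin4, Pparg and Cebpa are also among the 13 adipocyte markers, so these lists are not separate from that one.

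Of 11 listed receptors that steer lipolysis, 7 were measured, and no beta-adrenergic receptor was among them. The mean was higher in Tg in 6 of the 7, with a median of 0.48. The 7 hold receptors that raise lipolysis and receptors that restrain it, so this count gives no direction for lipolysis itself. Tshr, the thyrotropin receptor, which raises cyclic AMP, read 8.63, 8.49 and 8.25 in the WT arrays and 9.09, 8.79 and 9.14 in the Tg arrays. Its groups were apart, with a difference of 0.55 ± 0.15 (SE; adjusted p = 0.357 in limma). Npr3, the clearance receptor that removes lipolytic natriuretic peptides, differed by 0.59 ± 0.17 (adjusted p = 0.373 in limma), also with groups apart. Npy1r, a receptor that restrains lipolysis, named after its values were seen, was the only one of the 7 below 0, at -0.12 ± 0.14.

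Among G protein subunits, cyclases, and protein kinase A with its anchoring proteins, 12 of 18 genes were higher, with a median of 0.07. Gnas, named after its values were seen, is among the 12 at 0.08, with a signal close to the median of all rows. Adcy5, an adenylyl cyclase that makes cyclic AMP, read 6.59, 6.50 and 6.52 in the WT arrays and 7.71, 7.02 and 7.28 in the Tg arrays. The WT arrays were within 0.09 of each other, and the difference of 0.80 ± 0.18 (SE), or 1.74-fold, exceeded that of any of the 9 lipolysis genes (adjusted p = 0.326 in limma). The other measured cyclases, named after their values were seen, did not all go this way. Adcy2 (-0.32 ± 0.10, at a signal close to the median of all rows) and Adcy7 (-0.20 ± 0.11, with a gap of 0.00 after rounding) were lower with groups apart. Adcy4 (0.17), Adcy6 (0.34) and Adcy9 (-0.03) had overlapping groups. Gnai1, a G protein subunit that inhibits adenylyl cyclase, differed by 0.60 ± 0.15 with groups apart (adjusted p = 0.347 in limma). Named after their values were seen, the regulatory kinase subunit Prkar2b differed by 0.48 ± 0.13 with groups apart, while the catalytic subunits Prkaca (0.27 ± 0.14) and Prkacb (-0.17 ± 0.11) had opposite signs on the deposited values and overlapping groups.

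In the insulin arm that lowers cyclic AMP, 8 of 11 genes were higher, with a median of 0.13. Irs2, the adaptor that passes the signal on from the insulin receptor, differed by 0.55 ± 0.18 (adjusted p = 0.408 in limma). Abhd15, which encodes a partner that stabilises phosphodiesterase 3B, read 4.53, 4.60 and 4.57 in the WT arrays and 4.99, 4.68 and 4.81 in the Tg arrays. Its difference of 0.26 ± 0.11 (adjusted p = 0.499 in limma) was close to the 0.29 of Pde3b itself.

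Of the other droplet proteins 9 of 11 were higher, with a median of 0.25. Plin5, a perilipin of tissues that burn fat, read 5.09, 4.84 and 4.75 in the WT arrays and 6.27, 5.36 and 5.59 in the Tg arrays. Its difference of 0.85 ± 0.25 (SE), or 1.80-fold, was the largest of the list (adjusted p = 0.374 in limma), and Tg 1 was the highest array. Cavin1, a caveola coat protein whose loss impairs lipolysis, differed by 0.62 ± 0.14 (adjusted p = 0.335 in limma). Plin2, the perilipin of small droplets and of foamy macrophages, named after its values were seen, read 11.27, 11.16 and 11.19 in the WT arrays and 10.98, 10.97 and 11.10 in the Tg arrays. It was lower by -0.19 ± 0.10 (adjusted p = 0.546 in limma), the opposite sign to Plin1, Plin4 and Plin5 on the deposited values. Plin3 (-0.10 ± 0.11) was also below 0. The groups of Plin3 and of Plin4 (0.30 ± 0.23), both named after their values were seen, overlapped.

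Other lipid hydrolases were higher in 9 of 14 genes, with a median of 0.04. Pnpla3, a close relative of Pnpla2, read 7.22, 7.00 and 7.06 in the WT arrays and 7.65, 7.45 and 7.50 in the Tg arrays. Its groups were 0.22 apart, with a difference of 0.44 ± 0.11 (adjusted p = 0.346 in limma). Abhd6, another monoglyceride hydrolase, differed by 0.34 ± 0.12 (adjusted p = 0.439 in limma).

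Genes that handle the fatty acids and glycerol were higher in 8 of 13, with a median of 0.09. Dgat2, which puts fatty acids back into triglyceride, differed by 0.63 ± 0.18 (adjusted p = 0.373 in limma). Gpd1, which makes glycerol 3-phosphate for that step, differed by 0.50 ± 0.17 (adjusted p = 0.417 in limma). Fabp4, which carries fatty acids away from the droplet, read 12.20, 12.25 and 12.19 in the WT arrays and 12.23, 12.31 and 12.38 in the Tg arrays, with overlapping groups. It is named after its values were seen.

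Transcription factors and cofactors known to act on these genes were higher in 12 of 14, with a median of 0.10. Foxo1, which insulin restrains and which drives Pnpla2, read 7.17, 7.07 and 7.07 in the WT arrays and 7.64, 7.28 and 7.53 in the Tg arrays. Its difference was 0.38 ± 0.12 with groups apart (adjusted p = 0.397 in limma). Epas1, the gene of the hypoxia factor HIF-2 alpha, differed by 0.58 ± 0.18 with groups apart (adjusted p = 0.387 in limma). Pparg, named after its values were seen, differed by 0.26 ± 0.12, also with groups apart. Cebpb, named in the same way, was lower by -0.19 ± 0.11, with groups apart by a gap of 0.00 after rounding.

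**Figure D4:**
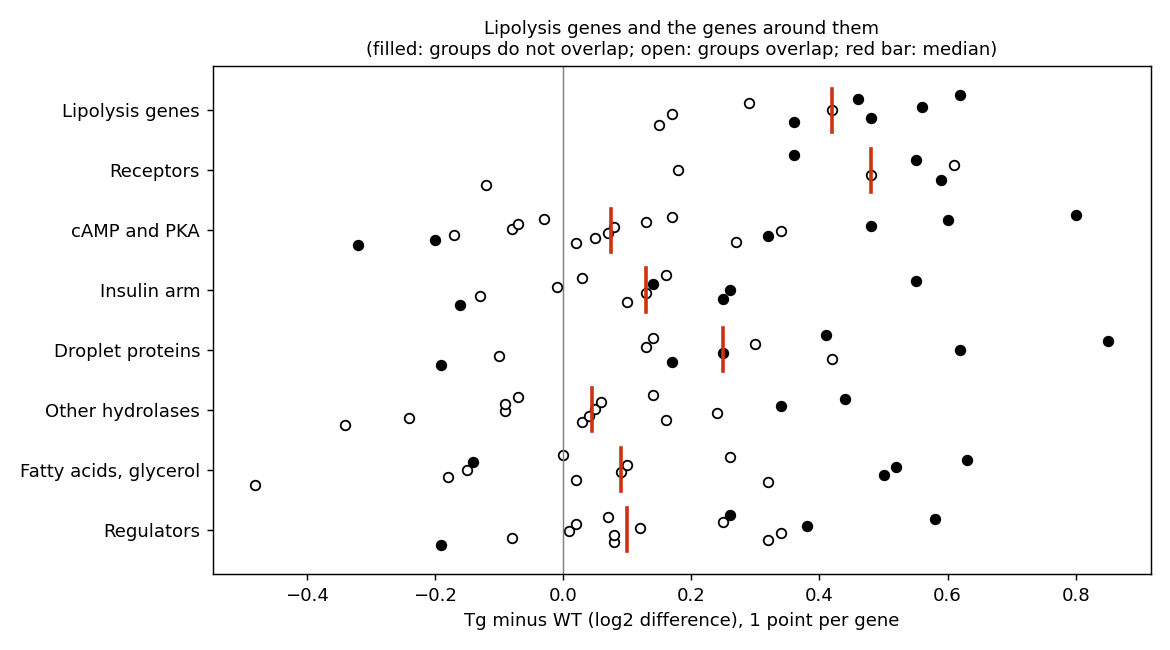
Difference between Tg and WT in log2 units (x axis) for the 9 lipolysis genes and the genes of 7 surrounding lists (y axis), 1 point per gene, filled where the groups do not overlap, with the list median as a red bar. On the deposited values all 9 lipolysis genes lie above 0, and the medians of the other lists run from 0.04 for other hydrolases to 0.48 for receptors.

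Among 12779 other genes with a signal above the median of all rows, the 5 whose pattern over the 6 arrays was most like the mean of the 9 genes were Pfkfb3, B930092H01Rik, Zfp598, Ina and Bmpr1a. Pfkfb3, which makes the activator of the glycolytic enzyme phosphofructokinase, read 8.31, 8.03 and 7.73 in the WT arrays and 8.68, 8.36 and 8.55 in the Tg arrays. Its difference was 0.50 ± 0.17 with groups apart (adjusted p = 0.422 in limma). Likeness was Pearson's r over 6 arrays, from 0.997 to 0.999, and with so few arrays many genes reach high values.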

How the data were processed

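Biotinylated cDNA for Affymetrix arrays was made from 400 ng of total RNA with the whole-transcript kit, per the labels' protocols. The deposited values are log2 signals, 1 per array and row, made with RMA, per the submitters' processing notes, which also name limma. RMA corrects background, normalizes between arrays and compresses low differences, so a shift of all RNA would be hidden. The sources used here give no version, setting, filter or build. Array medians lay between 2.64 and 2.75.

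Of 41345 rows, 23521 named 1 gene, 1814 several and 16010 none in the platform annotation. Tg was compared with WT over all rows with limma 3.58.1 in R 4.3.3 (lmFit, eBayes, moderated, 2-sided, no filter, no covariate), with Benjamini-Hochberg adjustment over all rows and a threshold of 0.05. The procedure was tested on simulated data. Genes named were the 9 members, the 2 with the smallest p of each of 7 pathway lists, Adipoq, and the 5 most alike; others are marked as named after their values were seen. Members and lists were chosen with earlier results of these data known. Missing list genes are not analysed here. Promoters come from RefSeq (GRCm38.p6). Replicate numbers were not used to pair the arrays, except in the block alternative below. WT 2, WT 3 and Tg 2 alone were compared as an alternative added after seeing the data.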

Additional observations from a re-analysis of the deposited data

How the results depend on the processing

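Over 19 alternatives, 0 of the 9 lipolysis genes passed the threshold in any of them. Leaving out each array in turn gave a median difference of 0.31 to 0.53, with the lowest value without WT 3 and without Tg 1. The groups of 5 to 7 genes then stood apart, where 11.1% to 14% of all rows stood apart in this direction. Leaving out an array cannot make separated groups overlap, so this count could only stay at 5 or rise. No row of the table passed in any of those fits (0 to 0). The median difference was 0.48 with each array centred on its median and 0.41 with cyclic loess or quantile normalization. With the replicate number as a block it was 0.42, and 0 genes passed. The correlation of same-numbered arrays' deviations was -0.038, 0.007 and -0.043. With 3 arrays per group such values cannot decide whether same-numbered arrays belong together. The block changed no call.

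Centring each array on the adipocyte markers had the largest effect. It lowered every row's difference alike, so the median of all rows moved to -0.44 and that of the 9 genes to -0.01. Groups stood apart with Tg higher in 1 of the 9 genes and in 0.399% of all rows, while 72 rows passed, 71 of them lower in Tg. By that construction the smaller differences, Pnpla2 (-0.07), Abhd5 (-0.27), Hilpda (-0.25), Plin1 (-0.01) and Pde3b (-0.14), fell below 0. Among WT 2, WT 3 and Tg 2, 8 genes had groups apart, where 32.1% of all rows did, since fewer arrays separate more easily. Among WT 1, Tg 1 and Tg 3, Abhd5 (-0.03) and Hilpda (-0.20) changed sign. Hilpda also did so without WT 3, over a range of -0.06 to 0.33 when each array was left out. Aqp7, Mgll, Lipe and G0s2 kept their sign in all 19 alternatives, Aqp7 between 0.19 and 0.73. Their groups stood apart on the deposited values, so leaving out arrays could not change these signs. Settings that alter only the errors, the threshold or the rows tested could not do so either. The count of 19 is therefore no measure of stability.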
